A study of Cricetulus griseus with 9 samples.

Results

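The transcripts described here are those of the cytosolic ribosomal proteins, which were taken as every listed gene with an Rps or Rpl symbol of the standard form or the symbol Rpsa, without the Rps6k kinases. The rule found 34 of the 6753 genes of the deposited table: 18 proteins of the small subunit, 13 of the large subunit and 3 ribosomal protein paralogues (Rpl22l1, Rps27l and Rpl7l1). A RefSeq table of the Chinese hamster assembly CriGri-PICRH-1.0 holds 78 symbols that match the rule, of which 32 were among the listed genes. The acidic stalk proteins Rplp0, Rplp1 and Rplp2, the 5S RNA partners Rpl5 and Rpl11, and Rpl22, Rps27 and Rpl7, the parent genes of the paralogues, were not analysed here.

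The RNA came from MI5-4 cells, a line derived from Chinese hamster ovary (CHO) cells, and mRNA sequencing gave 3 libraries in each of 3 groups. All groups were grown with 1000 mg/L glucose and 10% serum. EV cells carried an empty vector and are described as lacking hexokinase, WTHK2 cells are described as expressing wild-type hexokinase 2, and LAC cells were EV cells kept for 24 h with sodium lactate at 10 mM. The labels name no clone and leave unsaid whether replicates came from separate cultures, and the p-values then cover no more than the spread between the sequenced samples, which may be technical.

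Each ribosome is built from a small subunit, which reads the mRNA, and a large subunit, which joins amino acids and releases the growing chain through an exit tunnel. The proteins of both subunits are needed in matched amounts, and their genes are short, strongly expressed and spread over many chromosomes. Their mRNAs start with a terminal oligopyrimidine (TOP) tract, through which mTORC1 and the RNA-binding protein LARP1 set how much of them is translated and how long they last.

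Values were normalized CPM as deposited, a read count expressed relative to the size of its library. Within each library the values were whole multiples of 1 step, and where that step is taken as 1 read, which the sources used here do not state, effective library sizes were 18050959 to 26238659 reads and the fewest reads of any ribosomal protein gene in a library 656 to 1135. Hk2, the gene that the WTHK2 label names, had means of 67.3 ± 2.11, 65.3 ± 1.33 and 67.8 ± 2.92 CPM in EV, WTHK2 and LAC (SD, n = 3), and limma gave a log2 fold change of -0.044 for WTHK2 against EV (adjusted p = 0.522). Hk1, a further hexokinase gene, stood at 324 ± 7.09, 285 ± 7.63 and 302 ± 2.22 CPM in EV, WTHK2 and LAC, so its transcript was present in the cells labelled as lacking hexokinase, and it fell by 0.18 in WTHK2 (adjusted p = 3.64e-04) and by 0.097 in LAC (adjusted p = 0.0277) on the log2 scale. With the trend of gene span removed, a step described below, neither fall of Hk1 passed (-0.065 and 0.039, adjusted p = 0.142 and 0.393). The species of the introduced HK2 is not given in the sources used here, so what is said of WTHK2 below is said of the libraries that carry this label. The 4 listed mitochondrially encoded transcripts were higher in both groups than in EV, as 21% of all genes were in WTHK2 and 22.4% in LAC. Their median log2 fold change was 0.52 in WTHK2 and 0.59 in LAC. By library, their median stood at 0.73, 0.45 and 0.40 in WTHK2 and 0.80, 0.52 and 0.45 in LAC, so replicate 1 was the highest in both. With quantile normalization of the libraries, COX1 passed in neither group. Of 7 fibroblast-type markers, 3 were listed (Vim, Col3a1 and Fn1), and of 8 leukocyte and 7 epithelial markers, 0 were. The 3 fibroblast-type markers summed to 3513 to 3586 CPM in EV, 4044 to 4166 in WTHK2 and 3415 to 3492 in LAC. They did not move together. In WTHK2, Col3a1 and Vim were higher than in EV (log2 values of 0.56 and 0.31) and Fn1 was lower (-0.35). In LAC, 0 of the 3 were called higher and 1 was called lower, Fn1 at -0.33. Their part in the results below was not tested.

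Ribosomal protein transcripts were more abundant in both groups than in EV cells. In the libraries labelled WTHK2, 32 of 34 rose and 0 fell against EV, where 21% of all 6753 genes were called higher and 25.4% lower. In LAC, 33 of 34 rose and 0 fell, where 22.4% of all genes were called higher and 27.1% lower. The rises were small: the median log2 fold change was 0.19 in WTHK2 (quartiles 0.15 and 0.22), a fold of 1.14, and 0.26 in LAC (quartiles 0.21 and 0.30), a fold of 1.2. The median over all genes was -0.0082 and -0.0035. A gene was called where the Benjamini-Hochberg adjusted p of limma over all genes was under 0.05, and fold changes are differences on the log2(CPM + 1) scale. CPM are shares of a library, so more ribosomal protein mRNA per cell, less of other mRNA per cell and a different mix of cells cannot be told apart. In 32 genes all WTHK2 libraries lay above all EV libraries, as 26.6% of all genes did, and in 34 genes all LAC libraries did, as 27% of all genes did. The comparisons with EV share the same 3 control libraries.

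Across the whole table, the differences from EV also went with the length of the gene in the genome. The 32 ribosomal protein genes with a RefSeq span (start to end of the gene, introns included) covered 1.76 to 6.01 kb, with a median of 3.41 kb, while the median of all matched genes was 24.9 kb. With the matched genes in 4 equal span classes, 1504 others lay in the shortest class (up to 11.4 kb). Of these, 643 were higher and 91 lower in WTHK2, and 708 were higher and 69 lower in LAC. In the longest class (over 55.4 kb), 72 of 1535 were higher and 777 lower in WTHK2, and 61 were higher and 873 lower in LAC. The 612 other genes within the span range of the ribosomal proteins had median log2 fold changes of 0.13 in WTHK2 and 0.15 in LAC, with 293 and 324 of them higher and 28 and 20 lower.

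**Figure D1:**
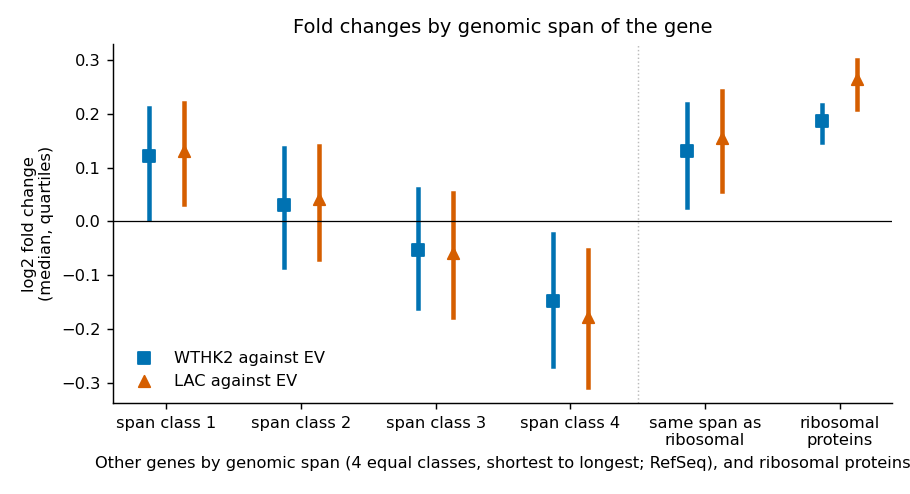
Median log2 fold change against EV (symbols) with the quartiles (bars), for other genes in 4 equal classes of RefSeq genomic span, for other genes within the span range of the ribosomal proteins, and for the ribosomal proteins. The medians step down from 0.12 and 0.13 in the shortest class to -0.15 and -0.18 in the longest, and the ribosomal proteins stand at 0.19 in WTHK2 and 0.26 in LAC.

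With the trend of span removed from each library, a step added after the data were seen, most of the LAC rises and fewer of the WTHK2 rises passed. In LAC, 21 of 32 ribosomal protein genes remained higher than EV and 0 were lower, where 17.2% of all 6141 genes in that fit were called higher and 19.1% lower, and the median log2 value was 0.10. The 11 not called in LAC were Rpl13, Rpl17, Rpl22l1, Rpl7l1, Rpl8, Rps13, Rps2, Rps27l, Rps3, Rps4x and Rpsa. In WTHK2, 9 of 32 remained higher (among them Rpl19, Rpl22l1, Rpl28, Rpl3, Rpl31, Rps18, Rps7 and Rps9) and Rps4x and Rpl7l1 were lower, where 18.1% of all genes in that fit were called higher and 19.2% lower, and the median was 0.038. The WTHK2 share of members called higher was thus much nearer to that of all genes than before the trend was removed. The trend was fitted on the other genes only, so the values of the ribosomal proteins did not shape it. Of 107 other genes with a mean CPM within the quartiles of the ribosomal proteins, 31 were higher and 36 lower in WTHK2, and 38 and 40 in LAC. Of 41 other genes with a mean CPM at or above the median of the ribosomal proteins, 16 were higher and 9 lower in WTHK2, and 19 and 10 in LAC, with median log2 fold changes of 0.018 and 0.061. A further set of 19 other genes lay within the span range and had a mean CPM at or above the lower quartile of the ribosomal proteins. Of these, 13 were higher and 1 lower in WTHK2 (68.4% higher), and 12 and 1 in LAC (63.2% higher). Their median log2 fold changes were 0.14 and 0.13. What the span of a gene stands for in these libraries was not tested.

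**Figure D2:**
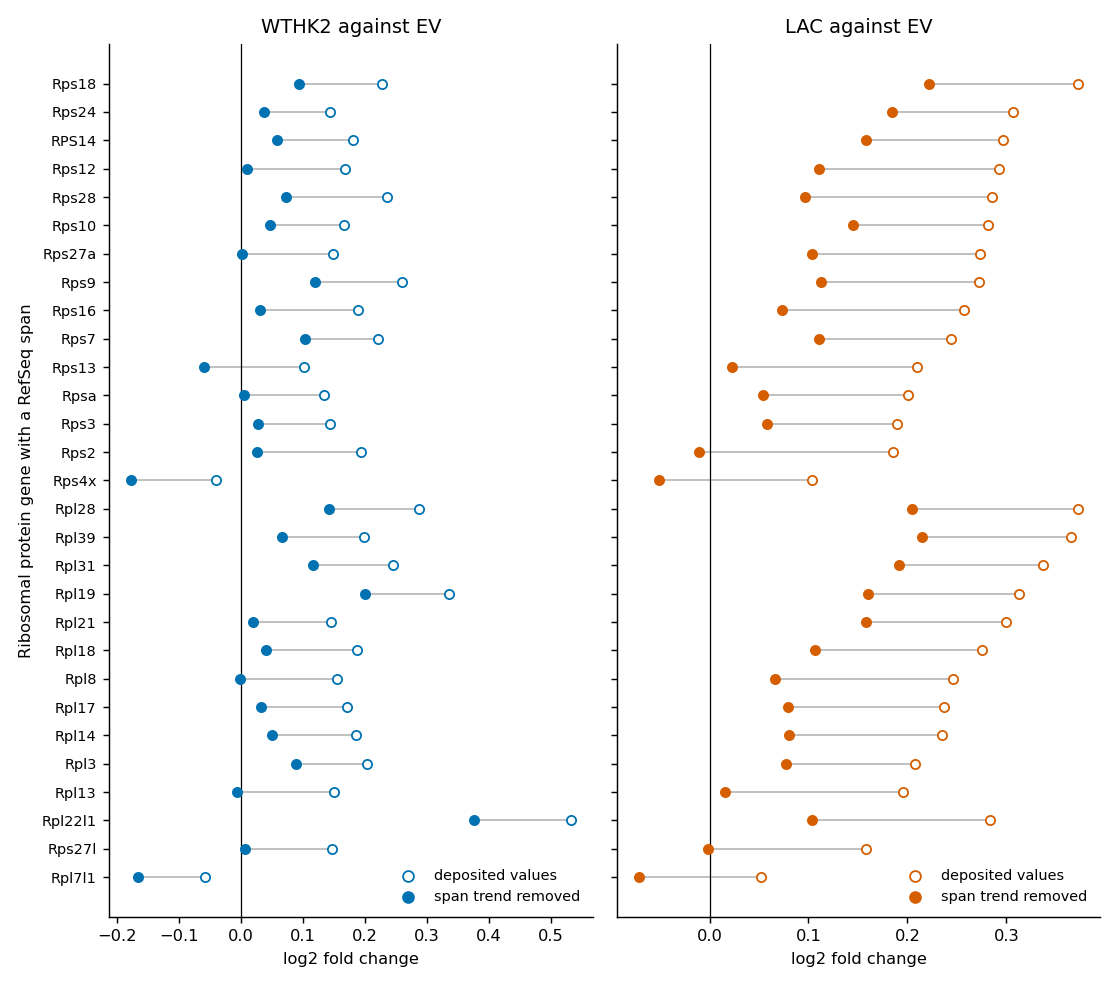
Log2 fold change against EV for 29 of the 32 ribosomal protein genes with a RefSeq span, from the deposited values (open symbols) and with the trend of span removed in each library (filled symbols), for WTHK2 and LAC. All filled symbols lie to the left of the open ones; with the trend removed, the median of the 32 genes is 0.038 in WTHK2 and 0.10 in LAC.

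Summed over the 34 genes, ribosomal protein transcripts made up 31644, 31504 and 32125 CPM in the EV libraries, 35717, 35995 and 35868 in WTHK2, and 38567, 36230 and 38525 in LAC. All 6 treated or HK2-labelled libraries lay above all EV libraries, and all LAC libraries lay above all WTHK2 libraries. The group means were 31757 ± 326, 35860 ± 139 and 37774 ± 1337 CPM for EV, WTHK2 and LAC (SD, n = 3), so WTHK2 stood 12.9% and LAC 18.9% above EV. A single library, LAC replicate 2, sat apart from the other LAC libraries and was the lowest of them for 30 of 34 genes.

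Both subunits shared the rise. The small subunit genes summed to 19478 ± 188, 21716 ± 189 and 22966 ± 791 CPM for EV, WTHK2 and LAC, and the large subunit genes to 12055 ± 141, 13902 ± 65.2 and 14563 ± 549. The ratio of the small to the large subunit sum was 1.62 ± 0.0077 in EV, 1.56 ± 0.020 in WTHK2 and 1.58 ± 0.0083 in LAC. The large subunit sum thus gained slightly more, and this ratio was not tested. By gene, the median log2 fold changes of the small and large subunit were 0.17 and 0.20 in WTHK2 and 0.26 and 0.28 in LAC. With the trend of span removed, they were 0.030 and 0.046 in WTHK2 and 0.10 and 0.093 in LAC. Single ribosomal protein genes had a median coefficient of variation between replicates of 1.75% in EV, 1.79% in WTHK2 and 3.67% in LAC.

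**Figure D3:**
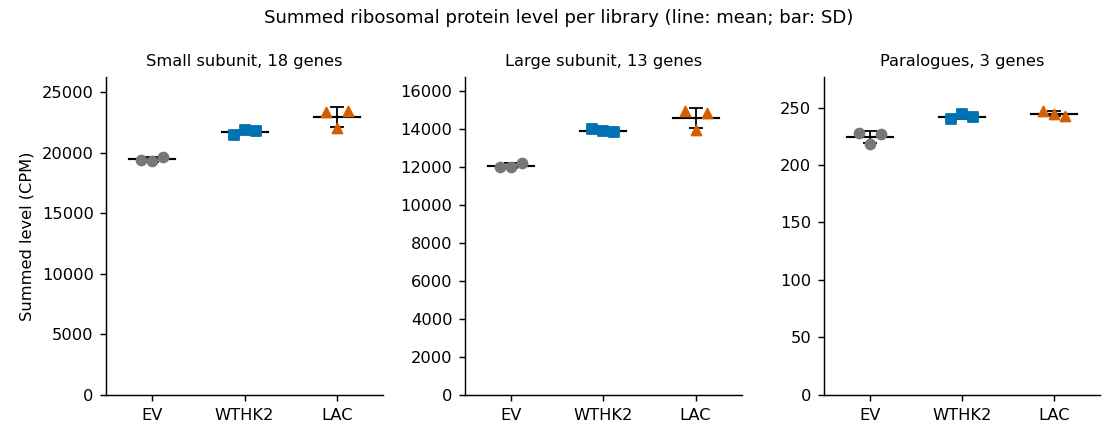
Summed CPM of the listed ribosomal protein genes in each library (points), with the group mean (line) and SD (bar), for the small subunit, the large subunit and the paralogues. All EV points are the lowest for both subunits, and the large subunit sum of LAC replicate 2 (13932 CPM) lies within the range of WTHK2 (13847 to 13974 CPM).

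In the small subunit, 17 of 18 genes rose in WTHK2 and 18 of 18 in LAC. Rps18, a protein of the subunit head, stood at 1081, 1068 and 1082 CPM in EV, 1278, 1254 and 1250 in WTHK2 and 1445, 1319 and 1424 in LAC, so that the 3 groups did not overlap. Its log2 fold change was 0.23 in WTHK2 (SE 0.034, adjusted p = 2.85e-05) and 0.37 in LAC (SE 0.034, adjusted p = 3.10e-07), the highest of the subunit in LAC. Rps9, which sits near the mRNA entry side and bears on decoding accuracy, stood at 616, 627 and 629.5 CPM in EV, 761, 744 and 738 in WTHK2 and 780, 724 and 760 in LAC. Here the EV libraries lay apart but WTHK2 and LAC overlapped, with log2 fold changes of 0.26 (SE 0.034, adjusted p = 4.95e-06) and 0.27 (SE 0.034, adjusted p = 3.84e-06). Rps28 rose by 0.24 and 0.29 and Rps24 by 0.14 and 0.31 on the log2 scale in WTHK2 and LAC.

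Members with roles at stalled or entering mRNA moved with the rest. Rps2 and Rps3 line the mRNA entry channel and, like Rps10, are ubiquitinated on stalled ribosomes. Rps2 stood at 2974, 2915 and 2985 CPM in EV, 3271, 3418 and 3456 in WTHK2 and 3425, 3201 and 3468 in LAC, and rose by 0.19 on the log2 scale in both (adjusted p = 1.81e-04 and 2.41e-04). Rps3 rose by 0.14 and 0.19, and Rps10 by 0.17 and 0.28. Rps27a, which is made as a fusion with ubiquitin and so supplies free ubiquitin as well, stood at 738, 742 and 760 CPM in EV, 837, 846 and 802 in WTHK2 and 892, 883 and 934 in LAC. Its groups did not overlap, and it rose by 0.15 (SE 0.034, adjusted p = 0.00127) and 0.27 (SE 0.034, adjusted p = 3.73e-06). Rpsa, which is also known as a laminin receptor, rose by 0.13 and 0.20. With the trend of span removed, both calls of Rps2 were lost (0.026 and -0.010, adjusted p = 0.469 and 0.794). So were those of Rps3 (adjusted p = 0.454 and 0.107) and Rpsa (0.906 and 0.0959). Rps10 and Rps27a then kept the LAC call but not the WTHK2 call (adjusted p = 0.207 and 0.982). Quantile normalization also ended both calls of Rps2.

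Rps4x was the exception of the subunit. This protein of the subunit body stood at 1390, 1432 and 1421 CPM in EV, 1296, 1407 and 1426 in WTHK2 and 1511, 1470 and 1581 in LAC. WTHK2 overlapped EV, and the log2 fold change was -0.041 (SE 0.037, adjusted p = 0.389, 95% interval -0.12 to 0.037), while all LAC libraries lay above both groups. The LAC rise was 0.10 (SE 0.037, adjusted p = 0.0267), and the call was lost when EV replicate 1 was left out (adjusted p = 0.11), or EV replicate 2 (0.0526), EV replicate 3 (0.0579) or LAC replicate 3 (0.145). Rps13 was among the smaller called rises in WTHK2, at 0.10 on the log2 scale (adjusted p = 0.0306). The call was lost without EV replicates 1 or 2 (0.0701 and 0.127) or WTHK2 replicates 2 or 3 (0.0641 and 0.0586).

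In the large subunit, 13 of 13 genes rose in both groups. Rpl19, a protein that reaches the exit tunnel and a bridge to the small subunit, stood at 1187, 1218 and 1230 CPM in EV, 1562, 1516 and 1507 in WTHK2 and 1542, 1428 and 1547 in LAC. It had the highest large subunit rise in WTHK2, 0.34 on the log2 scale (SE 0.035, adjusted p = 3.04e-07), and rose by 0.31 in LAC (SE 0.035, adjusted p = 1.52e-06), with overlap between the 2 groups. Rpl28 stood at 600, 620 and 620 CPM in EV, 730, 739 and 778 in WTHK2 and 854, 738 and 796 in LAC, and rose by 0.29 and 0.37. Rpl36 rose by 0.25 and 0.32.

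Proteins at the tunnel exit, where the new chain meets processing and targeting factors, included Rpl17, Rpl19, Rpl31 and Rpl39. Rpl39, a very small protein of the tunnel wall, stood at 664, 659 and 697 CPM in EV, 790, 769 and 760 in WTHK2 and 903, 830.5 and 871 in LAC. The 3 groups did not overlap, and the log2 rises were 0.20 (SE 0.036, adjusted p = 1.76e-04) and 0.37 (SE 0.036, adjusted p = 5.15e-07). Rpl31 rose by 0.24 and 0.34 and Rpl17 by 0.17 and 0.24. The smallest called rises of the subunit were those of Rpl21 in WTHK2 (0.14, SE 0.038, adjusted p = 0.00384) and Rpl13 in LAC (0.20, SE 0.031, adjusted p = 4.30e-05).

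Rpl3 and Rpl8 lie near the peptidyl transferase centre, where amino acids are joined. Rpl3 stood at 1323, 1324 and 1320 CPM in EV, 1541, 1534 and 1493 in WTHK2 and 1514, 1502 and 1567 in LAC, with rises of 0.20 and 0.21. Rpl8 rose by 0.15 and 0.25. Genes whose loss of 1 copy is known to cause Diamond-Blackfan anaemia in people were represented by Rps7, Rps10, Rps24, Rps28, Rpl18 and Rpl31, and 6 of 6 rose in both comparisons, with medians of 0.20 and 0.28 that lay near those of the other genes of both subunits (0.19 and 0.26).

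The 3 paralogues each took a different course. Rpl22l1, which can stand in for Rpl22 in the large subunit, stood at 30.5, 28.01 and 29.5 CPM in EV, 42.7, 43.3 and 42.5 in WTHK2 and 37.7, 34.3 and 35.8 in LAC. Its groups did not overlap and, unlike the order of most members, WTHK2 was the highest. The log2 rise was 0.53 in WTHK2 (SE 0.067, adjusted p = 3.35e-06), the largest of all 34 genes, and 0.28 in LAC (SE 0.067, adjusted p = 0.00160).

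Rps27l, a p53-responsive relative of Rps27, stood at 81.8, 76.7 and 83.6 CPM in EV, 94.2, 88.0 and 86.2 in WTHK2 and 92.9, 90.3 and 87.2 in LAC. It rose by 0.15 (SE 0.052, adjusted p = 0.0262) and 0.16 (SE 0.052, adjusted p = 0.0166), the WTHK2 call being lost without EV replicates 1 or 2 or WTHK2 replicate 1 (adjusted p = 0.0505, 0.139 and 0.119) and the LAC call without EV replicate 2 or LAC replicate 1 (0.0990 and 0.0664). Rpl7l1, a nucleolar relative of Rpl7 with a part in ribosome assembly, was the 1 gene called in neither comparison. It stood at 116, 113 and 114 CPM in EV, 103, 113 and 113 in WTHK2 and 116, 120 and 119 in LAC, and limma put its log2 fold changes at -0.058 (95% interval -0.15 to 0.038, adjusted p = 0.311) and 0.052 (95% interval -0.044 to 0.15, adjusted p = 0.365). Ribosomal protein genes have many near-identical copies in mammalian genomes, and how reads shared with such copies were counted is not given in the sources used here, so the levels of single members are uncertain to that extent.

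**Figure D4:**
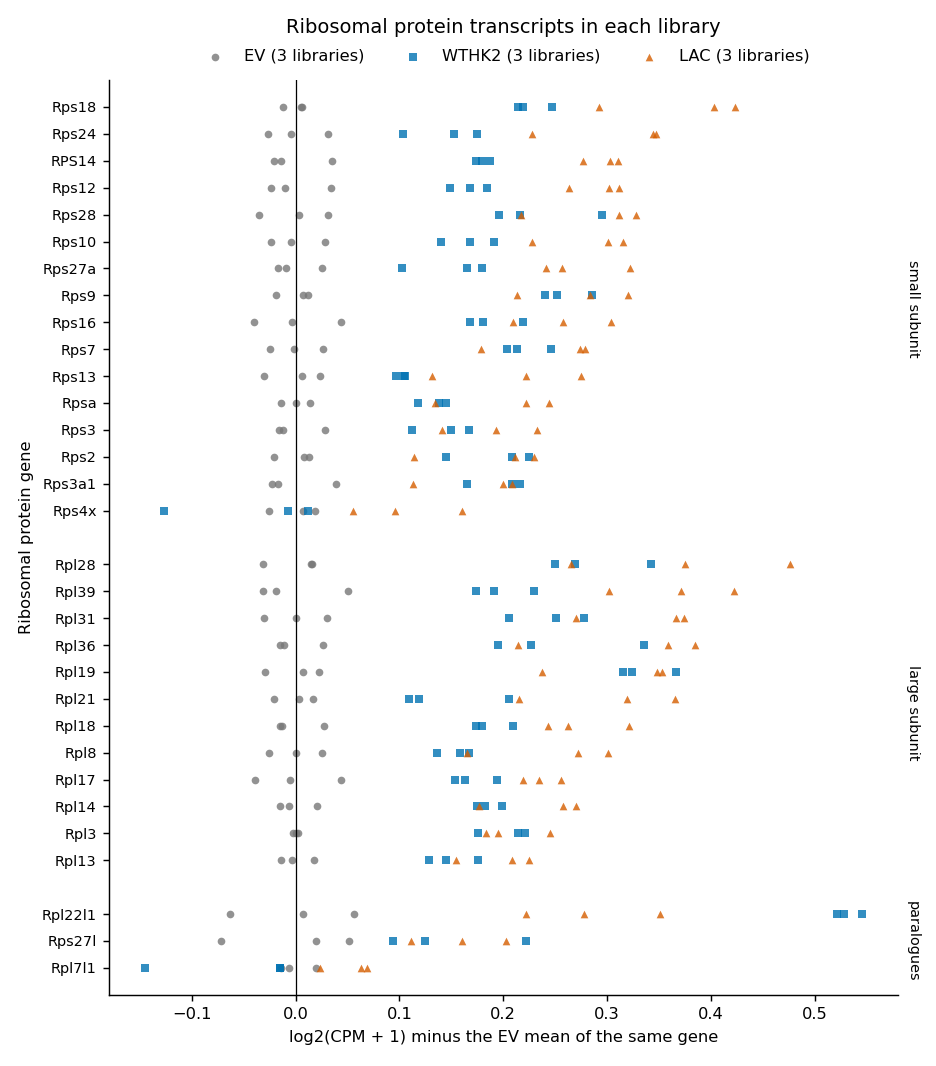
Log2(CPM + 1) of 31 of the 34 ribosomal protein genes in each library, minus the EV mean of the same gene, by subunit and ordered by the LAC fold change. Grey points are EV, blue squares WTHK2 and orange triangles LAC; the blue squares all lie to the right of EV for 29 of 31 genes, the exceptions being Rps4x and Rpl7l1, and Rpl22l1 has its WTHK2 libraries furthest to the right.

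The direct comparison of WTHK2 with LAC asked whether the 2 groups differ from each other, which the comparisons with EV do not show. Of the 34 genes, 11 were lower in WTHK2 than in LAC and 1, Rpl22l1, was higher, where 7.76% of all genes were called lower and 8.37% higher. All WTHK2 libraries lay below all LAC libraries for 15 genes and above them for Rpl22l1, as they did for 14.5% of all genes in each direction. The median log2 difference was -0.076, and 28 of 34 genes had the order EV, WTHK2, LAC in their group means. The lower genes were 9 of 18 in the small subunit (among them Rps24, Rps18, Rps4x, Rps12, Rps27a, RPS14 and Rps10) and 2 of 13 in the large subunit (Rpl39 and Rpl21). Removing the trend of span left the same 12 calls in place, with a median of -0.065, where 8.29% of all genes in that fit were called lower and 8.16% higher.

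The differences were modest. Rps24 stood at 1223, 1203 and 1163 CPM in WTHK2 and 1374, 1268 and 1377 in LAC, which did not overlap, and its log2 difference was -0.16 (SE 0.036, adjusted p = 0.00330). Rpl39 differed by -0.17 (SE 0.036, adjusted p = 0.00275) and Rps18 by -0.15 (SE 0.034, adjusted p = 0.00578). Rpl21 stood at 1331, 1253 and 1244 CPM in WTHK2 and 1487, 1340 and 1440 in LAC, and Rps12, of the subunit head, at 1416, 1452 and 1435 against 1575, 1533 and 1586. Their log2 differences were -0.16 (adjusted p = 0.00716) and -0.13 (adjusted p = 0.00786), again without overlap. Without the variance trend of limma, 3 of 34 genes were lower in place of 11, and the calls of Rpl21, Rps12 and Rps18 were lost (adjusted p = 0.0636, 0.0702 and 0.0577) while those of Rps24 and Rpl39 were not (0.0440 and 0.0386). Those of Rpl21 and Rps18 were also lost with quantile normalization (0.0903 and 0.0783), and that of Rps12 without the first replicate of every group (0.0529).

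The number of lower genes moved with the libraries. Without LAC replicate 2, the lowest LAC library, 18 of 34 were lower, the added genes being Rpl8, Rps13, Rpl31, Rpl28, Rpsa, Rpl36 and Rpl18 (adjusted p = 0.00387 to 0.0416). Other libraries ended single calls, of which these were some: that of Rps4x was lost without LAC replicate 3 (adjusted p = 0.0790), that of RPS14 without LAC replicate 1 or WTHK2 replicate 3 (0.0609 and 0.0679), that of Rps27a without LAC replicate 3 or WTHK2 replicate 3 (0.0870 and 0.0964), and that of Rps10 without LAC replicates 1 or 3 or WTHK2 replicate 3 (0.0857, 0.0807 and 0.0980). Rpl22l1 was at 0.25 (SE 0.067, adjusted p = 0.0135) and was lost without WTHK2 replicate 2 (0.0511).

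A further 22 genes were not called between WTHK2 and LAC. Those with differences nearest to 0 were Rpl3 at -0.0046 (95% interval -0.068 to 0.059), Rps2 at 0.0076 (-0.065 to 0.080), Rps27l at -0.011 (-0.12 to 0.097) and Rps9 at -0.013 (-0.083 to 0.057). The intervals include differences as large as some of those called, so equality is not shown. Rpl19 (0.022) and Rps3a1 (0.023) were, with Rps2 and Rpl22l1, the 4 genes with WTHK2 above LAC in the group means.

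**Figure D5:**
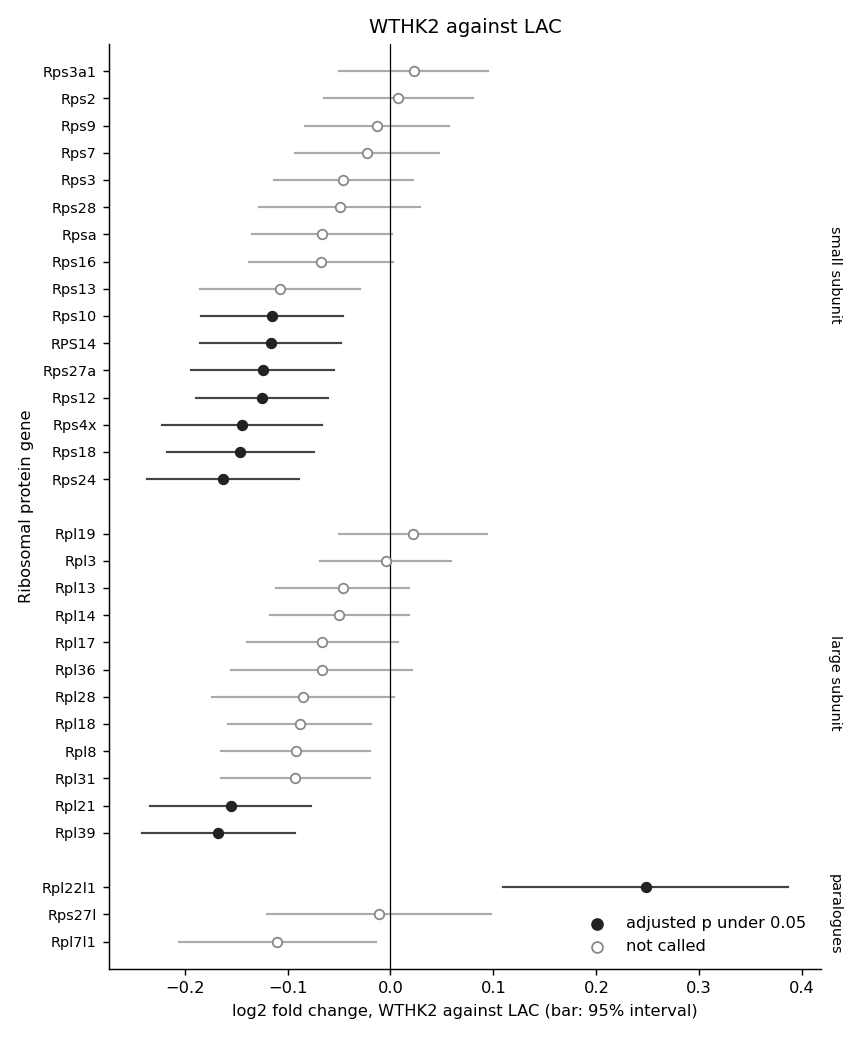
Log2 difference between WTHK2 and LAC for 31 of the 34 ribosomal protein genes, with the 95% interval (bar) and filled symbols for an adjusted p under 0.05. Filled symbols to the left of 0 are 7 small subunit and 2 large subunit genes, and Rpl22l1 is the 1 filled symbol to the right.

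Genes around ribosomal protein synthesis did not rise as a block. Of 15 listed genes that control TOP mRNAs, 8 fell and 1 rose in WTHK2, and 8 fell and 3 rose in LAC. In WTHK2 that is 53.3% lower and 6.67% higher, against 25.4% and 21% of all genes. In LAC it is 53.3% lower and 20% higher, against 27.1% and 22.4%. The share called higher in LAC was thus near that of all genes. In the longest span class of other genes, 50.6% were lower in WTHK2 and 56.9% in LAC. The list was not matched for span. Larp1, which binds the cap and TOP tract of ribosomal protein mRNAs, stood at 127, 145 and 118 CPM in EV, 67.4, 80.6 and 91.4 in WTHK2 and 65.1, 90.8 and 75.1 in LAC. The EV libraries lay above all others, and it fell in both, with log2 values of -0.70 (SE 0.10, adjusted p = 1.55e-05) and -0.76 (SE 0.10, adjusted p = 7.27e-06). Mtor, the kinase upstream of it, fell to log2 values of -0.31 in both, Larp4 to -0.36 and -0.50, and Rps6ka3, a kinase of ribosomal protein S6, to -0.28 and -0.34. With the trend of span removed, Larp1 stood at -0.61 and -0.65 and Mtor at -0.16 and -0.13, and these 4 values still passed, while the WTHK2 fall of Rps6ka3 did not (-0.13, adjusted p = 0.0548).

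Of 13 other genes with TOP mRNAs, 4 rose and 2 fell in WTHK2, and 7 rose and 1 fell in LAC. In WTHK2 that is 30.8% higher and 15.4% lower, against 21% and 25.4% of all genes. In LAC it is 53.8% higher and 7.69% lower, against 22.4% and 27.1%. In the shortest span class of other genes, 42.8% were higher in WTHK2 and 47.1% in LAC. These TOP genes were not matched for span. Eef1d, a subunit of the elongation factor 1 exchange complex, rose by 0.11 (adjusted p = 0.0301) in WTHK2 and by 0.32 (adjusted p = 6.22e-06) in LAC. Eef1g, a further subunit, went both ways, from 1304 ± 4.05 CPM in EV to 1228 ± 2.95 in WTHK2 and 1467 ± 33.5 in LAC, or -0.087 (adjusted p = 0.0231) and 0.17 (adjusted p = 1.34e-04). Its LAC rise turned to -0.0055 with quantile normalization, and rescaling the libraries to equal medians ended the WTHK2 call (adjusted p = 0.217). Eef1b2 rose by 0.099 and 0.23 in WTHK2 and LAC. With the trend of span removed, both its calls by limma were lost (-0.047 and 0.062, adjusted p = 0.224 and 0.105). The LAC rises of Eef1d and Eef1g (0.26 and 0.086) and the WTHK2 rises of Eif3e and Eif3h (0.20 and 0.27) then still passed. Between WTHK2 and LAC, 4 of the 13 were lower and 0 higher, where 7.76% of all genes were called lower and 8.37% higher. The log2 differences were -0.26 for Eef1g (adjusted p = 4.02e-06), -0.21 for Eef1d, -0.13 for Hnrnpa1 and -0.13 for Eef1b2.

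Of 11 listed chaperones and importers of ribosomal proteins, 1 was higher and 3 lower in both comparisons, or 9.09% and 27.3%. Over all genes, 21% were called higher and 25.4% lower in WTHK2, and 22.4% and 27.1% in LAC. The share called lower was near that of all genes and is not a result about the list. Singly, Grwd1, a chaperone of Rpl3, rose by 0.24 and 0.19. The import receptors Ipo7, Ipo9 and Tnpo1 fell, Ipo7 with log2 values of -0.35 and -0.35. With the trend of span removed, Grwd1 no longer passed (adjusted p = 0.0548 and 0.352), nor did the LAC fall of Ipo9 (-0.080, adjusted p = 0.0700). A list of genes that take part in modifying ribosomes held 19. Of these, 4 rose and 6 fell in WTHK2, and 3 rose and 6 fell in LAC. That is 21.1% and 31.6% against 21% and 25.4% of all genes in WTHK2, and 15.8% and 31.6% against 22.4% and 27.1% in LAC. These shares lie near those of all genes and are not a result about the list. Cdk5rap3, a partner of the UFM1 ligase that acts on the large subunit, rose from 74.8 ± 0.560 to 97.7 ± 3.34 CPM in WTHK2, by 0.38 (adjusted p = 4.77e-06). In LAC it stood at 0.098 (adjusted p = 0.104), and the difference between WTHK2 and LAC was 0.28 (adjusted p = 4.05e-04). Cdkn1a, a p53 target read when ribosome assembly is disturbed, was the 1 of 4 listed surveillance genes called against EV, at 0.14 in LAC (adjusted p = 0.0324) and not with the trend of span removed (adjusted p = 0.132). That is 25% of the list higher in LAC, near the 22.4% of all genes, and not a result about the list. Cdkn1a was also lower in WTHK2 than in LAC, by limma at -0.19 (adjusted p = 0.0179). That call held with the trend of span removed (-0.18, adjusted p = 0.0180).

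Mitochondrial ribosomal proteins, which build a separate ribosome inside mitochondria, moved in the same direction as the cytosolic ones. Of 69 listed, 42 rose in WTHK2 and 51 in LAC, 0 fell in either, and their median log2 fold changes were 0.19 and 0.21. That is 60.9% and 73.9% higher, where 21% and 22.4% of all genes were called higher and 25.4% and 27.1% lower. In the shortest span class of other genes, 42.8% and 47.1% were higher. The mitochondrial ribosomal proteins were not matched for span. Between WTHK2 and LAC, 4 were called higher and 4 lower at a median of -0.022, against -0.076 for the cytosolic proteins. That is 5.80% each way, near the 8.37% and 7.76% of all genes. The 63 listed genes next to a ribosomal protein gene, over 32 genes placed on 9 chromosomes by RefSeq, had 25 higher and 12 lower in WTHK2 and 25 higher and 16 lower in LAC. In WTHK2 that is 39.7% and 19.0%, against 21% and 25.4% of all genes. In LAC it is 39.7% and 25.4%, against 22.4% and 27.1%. These neighbours were not matched for span either.

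The genes most alike to the summed ribosomal protein level over the 9 libraries were Ndufb3, a subunit of respiratory complex I, Tubb4b, a beta-tubulin, Csnk2b, the regulatory subunit of casein kinase 2, Ahsa1, a co-chaperone of HSP90, and Eloa, a subunit of the elongin complex. Their Pearson correlations were 0.987, 0.987, 0.986, 0.986 and 0.986, over libraries that share the same 3 groups. Tubb4b averaged 663 ± 6.97 CPM over the EV libraries, 733 ± 2.34 over WTHK2 and 776 ± 30.5 over LAC. Among the ribosomal protein genes themselves, 30 of 34 had correlations with the summed level, which includes them, from 0.90 (Rps3a1) to 0.99, and the other 4 were Rpl7l1 (0.17), Rps4x (0.47), Rpl22l1 (0.71) and Rps27l (0.79).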

How the data were processed

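The deposited table gave CPM normalized by the authors for 6753 genes in 9 libraries. The submitters' processing notes name STAR 2.7.0a, featureCounts 2.0.1, edgeR 3.8, and before these cutadapt 1.18 and FastQC 0.11.8, and the genome build is not given in the sources used here. All values were whole multiples of a step per library within a tolerance of 0.01, from which effective library sizes were inferred. The listed genes summed to 80.3% to 81.4% of a library.

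Members and lists were chosen with earlier results of these data known. Named were the members called lower or not called, the largest and smallest changes of each subunit, every paralogue, genes of set roles and, of each list, up to 4 called genes.

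The analysis used log2(CPM + 1). A filter at a mean of 1 CPM removed 0 genes, and limma 3.58.1 (R 4.3.3) fitted all 9 libraries at once, without covariates and with the prior variance following a trend. Tests were two-sided, adjusted by Benjamini-Hochberg over all genes. Fits were tested on simulated data. Spans came from RefSeq by symbol (6141 of 6753 genes, 90.9%, and 32 of 34 members), and their trend was removed by a lowess curve per library fitted on the other genes. Tables used Python 3.11.15, numpy 2.4.6, pandas 2.3.3 and scipy 1.17.1, and figures matplotlib 3.10.9. Alternatives covered pseudocounts, filters, scalings, the fit, the threshold and the libraries left out. Same-numbered libraries were compared by the correlation of their deviations from the group means. This ran from -0.0057 to 0.44 and passed 0.1 in 4 of 9 pairs, so numbers were not treated as pairs. A few members entered all counts, sums and medians, but their single values are not reported here or drawn.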

Additional observations from a re-analysis of the deposited data

How the results depend on the processing

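Of the recomputed values of the main results, 188 stayed near the main value and 19 moved. A count was taken as near within a fixed ratio of the main count. A median or summed level was taken as near within the larger SD of the groups compared. Values taken as near could still differ, such as 14 lower genes in place of 11 between WTHK2 and LAC. For WTHK2 against EV, the median log2 fold change was 0.22 with library medians made equal. With the trend of span removed it was 0.038, with 9 genes higher and 2 lower, and 2 were lower with quantile normalization. For LAC against EV, the median was 0.22 with quantile normalization and 0.10 with the trend of span removed, with 21 higher. For WTHK2 against LAC, lower genes numbered 6 at an adjusted p under 0.01, 3 without the variance trend and 6 without the first replicate of every group. The 1 higher gene became 0 at that stricter threshold or with a filter at 50 CPM, and 2 with quantile normalization. The summed level of WTHK2 stood 15.8% above EV with library medians made equal and 6.51% with quantile normalization, and that of LAC 11.1% above EV with quantile normalization. The cause of these shifts was not tested.

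Leaving out 1 library gave 29 to 31 higher genes and medians of 0.18 to 0.20 for WTHK2 against EV, and 31 to 33 and 0.24 to 0.29 for LAC against EV. For WTHK2 against LAC it gave 8 to 18 lower and 0 to 1 higher genes and medians of -0.10 to -0.056. The summed level ranged from 12.5% to 13.6%, 17.7% to 21.4% and -6.97% to -4.06% in the 3 comparisons. With the replicate number as a block, 32 genes were higher in WTHK2 and 33 in LAC against EV, and 14 were lower and 1 higher between WTHK2 and LAC. In 7 of 9 libraries the best correlation was with the library of the same number, a hint from the data and not the design.

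Among single genes, some changed sign in WTHK2 against EV with quantile normalization (Rpl13 -0.13, Rpl8 -0.024 and Rpsa -0.036) and with the trend of span removed (Rpl13 -0.0062, Rpl8 -0.0019, Rps13 -0.059 and Eef1b2 -0.047). In LAC against EV they did so with the trend of span removed (Rps2 -0.010, Rps27l -0.0017, Rps4x -0.051 and Hk1 0.039), and Eef1g was at -0.0055 with quantile normalization. Over all genes, the share of called genes that were higher was 45.3% in both comparisons with EV, and 57.3% in WTHK2 and 58.6% in LAC with library medians made equal. Voom on reads recovered from the steps and the removal of the span trend were chosen after seeing the data. The planned fits with edgeR and DESeq2 on recovered reads were not run, because an independent search for the steps did not return whole reads, so read numbers stay inferred. With 3 libraries a group, single outlying libraries could not be tested, and genes below 20.4 CPM on average were not analysed here.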
